A study of Mus musculus with 24 samples.

Results

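Ung, Apex1, Msh6, Exo1, Polh and Rev1, genes of the repair that follows deamination of antibody genes by AID, were examined in an ATAC-seq series of mouse germinal center (GC) B cells. ATAC-seq uses a transposase to cut open chromatin, so the number of sequenced fragments in a peak measures how accessible that stretch of DNA was, and not how much RNA the gene made. The members were all consensus peaks that overlapped the GENCODE gene body (mm10) of any of the 6 genes extended by 20 kb on each side. These were 37 of the 65483 peaks in the series: 4 around Ung, 5 around Apex1, 8 around Msh6, 2 around Exo1, 8 around Polh and 10 around Rev1. Peaks are numbered along each gene's direction of transcription.

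In GC B cells AID converts cytosine to uracil in the DNA of immunoglobulin genes. UNG, a uracil glycosylase, removes the uracil, and APE1 (encoded by Apex1) cuts the strand at the abasic site that remains. Alternatively the mismatch is recognised by a dimer that contains MSH6, the exonuclease EXO1 removes the surrounding strand, and DNA polymerase eta (Polh) refills the gap with errors, mostly at A and T. REV1 inserts C opposite abasic sites and is a scaffold for other translesion polymerases. These enzymes serve general DNA repair in all cells, and in GC B cells the same steps yield somatic hypermutation and class switching.

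Every mouse carried Cγ1cre/+ on a C57BL/6J background, in which Cre is made from the Cγ1 constant region locus once a B cell is activated by T cell help. WT had no floxed allele, C (labelled C_het_KO) was Crebbp fl/+, K (K_het_KO) was Kmt2d fl/+ and CK (CK_het_DKO) carried a floxed allele of each. Crebbp encodes a histone acetyltransferase and Kmt2d a histone methyltransferase that marks enhancers, so the comparison asked whether loss of 1 copy of either or both alters accessibility at the repair genes. Spleens were taken 10 days after immunization with sheep red blood cells (SRBC), from mice described by the study as 8 weeks old, female, and 60000 sorted GC B cells were used per library. There was 1 library per mouse, from 4 WT, 4 C, 4 K and 5 CK mice, with 17483706 to 21857738 fragments in peaks. In such bulk libraries, fewer cells with an open site and less accessibility in every cell cannot be told apart.

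Libraries differed in ways that touch the values below. Fragments in the single-copy part of the Y chromosome were present in 9 of the 17 libraries (2 of 4 WT, 2 of 4 C, 3 of 4 K and 2 of 5 CK), although the study describes female mice. Peaks up to 5 kb from a transcription start site (TSS) took 65.7 to 67.3% of the fragments in WT, 65.6 to 66.99% in C, 66.7 to 69.03% in K and 67.2 to 68.4% in CK. All 7 GC B cell markers had promoter peaks, with a summed level of 427 to 491 CPM, while none of 2 NK cell markers did and only Cd3d of 4 T cell markers did (Cd3e, Cd4 and Cd8a had none; Cd3d had 21.03 to 32.6 CPM). Of the 3 myeloid markers Csf1r alone had a promoter peak (0.923 to 2.27 CPM), while the 3 naive or memory B cell markers summed to 53.1 to 70.9, the 3 plasma cell markers to 181 to 213 and the 2 stroma markers to at most 21.2 CPM. The promoter of Hbb-bt, a beta globin gene of red cells, was called lower in C and in CK vs WT, with 18.4 to 21.3 CPM in WT, 7.73 to 11.6 in C, 9.14 to 17.7 in K and 8.64 to 10.4 in CK, so all C, K and CK mice were below all WT mice. The part of the cells behind this difference in the results below was not tested. The 5 peaks over Crebbp and the 4 over Kmt2d gave no check of the genotypes, since 0 of them were called in any contrast.

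The sequences of the sites on which the results turn are shown first. Of the 6 genes, 5 matched a promoter in RefSeq (GRCm38.p6), defined as 250 bases before to 50 after the gene start, and the 4 shown are those whose peaks are described in most detail. Capitals mark GGGCGG (the core of the SP1 site), CCAAT (bound by NF-Y), TTCCCGC (an E2F site) and CGCATGCG (found in NRF1 sites) on either strand.
Ung, chr5:114130185-114130484, + strand: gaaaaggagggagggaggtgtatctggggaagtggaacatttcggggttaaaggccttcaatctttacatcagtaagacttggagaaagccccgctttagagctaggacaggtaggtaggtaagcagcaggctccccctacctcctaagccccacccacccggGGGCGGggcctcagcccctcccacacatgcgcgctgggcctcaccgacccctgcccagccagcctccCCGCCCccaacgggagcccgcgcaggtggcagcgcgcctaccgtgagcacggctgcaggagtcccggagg
Msh6, chr17:87974800-87975099, + strand: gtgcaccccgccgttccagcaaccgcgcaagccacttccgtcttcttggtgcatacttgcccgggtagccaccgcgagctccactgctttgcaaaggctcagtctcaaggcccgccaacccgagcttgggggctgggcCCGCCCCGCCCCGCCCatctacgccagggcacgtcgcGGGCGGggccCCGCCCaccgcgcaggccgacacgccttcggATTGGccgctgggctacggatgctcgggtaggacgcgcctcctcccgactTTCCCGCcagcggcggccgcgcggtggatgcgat
Polh, chr17:46202592-46202891, - strand: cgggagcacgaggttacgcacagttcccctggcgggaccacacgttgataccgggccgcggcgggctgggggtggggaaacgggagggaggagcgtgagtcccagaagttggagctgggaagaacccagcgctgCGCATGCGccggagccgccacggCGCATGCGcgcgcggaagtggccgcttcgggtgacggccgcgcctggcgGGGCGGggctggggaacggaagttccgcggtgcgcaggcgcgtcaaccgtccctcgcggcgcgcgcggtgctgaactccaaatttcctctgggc
Rev1, chr1:38129617-38129916, - strand: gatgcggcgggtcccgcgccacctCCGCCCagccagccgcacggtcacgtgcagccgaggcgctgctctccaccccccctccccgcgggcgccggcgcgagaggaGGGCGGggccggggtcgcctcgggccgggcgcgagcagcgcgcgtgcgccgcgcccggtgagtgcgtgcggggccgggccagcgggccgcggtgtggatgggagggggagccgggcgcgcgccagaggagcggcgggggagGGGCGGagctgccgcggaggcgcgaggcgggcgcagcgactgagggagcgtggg
All 5 promoters searched held GGGCGG, which 35.7% of 32851 RefSeq promoters of this length hold, from 1 copy in Apex1 and Polh to 5 in Msh6. The only promoter with CGCATGCG was that of Polh, with 2 copies (1.87% of all promoters hold it), and TTCCCGC was found only in that of Msh6 (4.60% of all). CCAAT was present in Apex1 and Msh6 (37.4% of all), and the E-box CANNTG in Ung, Apex1 and Rev1 (72.3% of all). None of the 5 held AGGAAG (1 form of an ETS site), TTCNNNGAA (a STAT site) or the octamer ATTTGCAT, which 35.4, 8.30 and 1.74% of all promoters hold. The shorter GGAA was not searched for and does occur, as in the cggaag of the Polh promoter. The 5 promoters were rich in CpG, with 16 in Ung, 31 in Apex1, 37 in Msh6, 42 in Polh and 51 in Rev1, against a median of 7 over all promoters. Matches of letters do not show that a factor binds.

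A peak covered the start of each of the 6 genes. In WT these promoter peaks ranged, per kb of peak length, from 18.4 to 57.4 CPM (fragments per 1000000 in peaks, TMM normalized). The order was Ung (57.4 ± 1.97 CPM per kb, SD, n = 4), Msh6 (55.9 ± 3.41), Exo1 (27.9 ± 1.13), Apex1 (26.5 ± 1.26), Polh (18.6 ± 0.776) and Rev1 (18.4 ± 1.19). Neighbours overlapped between mice for Ung and Msh6, for Exo1 and Apex1, and for Polh and Rev1, so these pairs did not differ beyond their spread. The lowest Msh6 value (51.3 CPM per kb) was above the highest of Exo1 (28.8), and the lowest of Apex1 (24.9) above the highest of Polh (19.1). By mean level the order was the same in C and K, and in CK Rev1 and Polh changed places. Ung and Msh6 lay at the 95.4th and 94.8th percentiles of the per-kb level among 16179 peaks within 1 kb of a TSS, whereas Polh and Rev1 lay at the 51.4th and 51.0th.

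**Figure D1:**
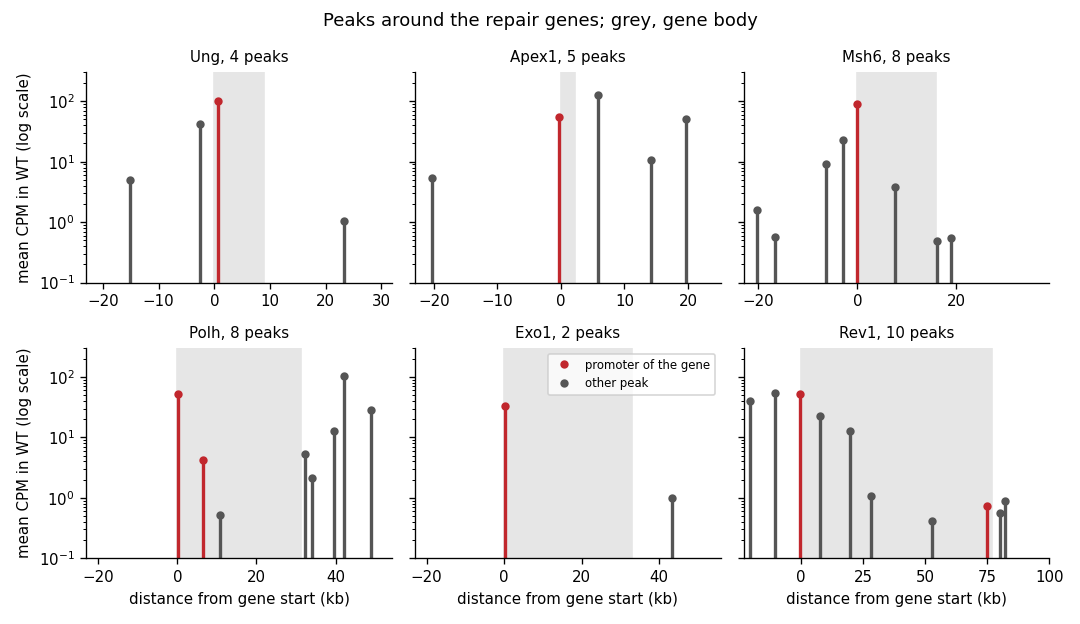
Mean accessibility in WT (CPM, log scale, n = 4 mice) of the 37 peaks against the distance of the peak's centre from the gene start (kb, in the direction of transcription), with the gene body in grey and promoters of the gene in red. Exo1 had 1 peak besides its promoter, whereas Polh and Rev1 had several peaks of over 10 CPM outside their own promoters.

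Across genotypes, 0 of the 37 peaks had an adjusted p under 0.01 (edgeR's quasi-likelihood test, adjusted by Benjamini-Hochberg over the whole table) in C, K or CK against WT. This is the adjusted p level of the study, which used DESeq2 and a fold cutoff of 1.5 as well. Over the whole table, C had 0.16% of peaks called, K 1.48% and CK 6.84%. These shares varied with the libraries included. The peaks called were 105 in C, 966 in K and 4478 in CK. Leaving out 1 library gave 51 (without WT replicate 1) to 133 in C and 216 (without K replicate 1) to 1071 in K. In CK it gave 2114 (without WT replicate 4) to 4609. With the replicate number as a block, which pairs the WT and C mice, C vs WT had 213 calls and still 0 among the members. The count was also 0 in CK vs C (1.68% of all peaks called; 1098 peaks, or 250 without C replicate 4), CK vs K (0.00916%), K vs C (0.788%; 516 peaks, or 102 without C replicate 4), the test of whether CK departed from adding up C and K (0.0107%) and the test of any genotype (5.62%; 3683 peaks, or 2362 without WT replicate 4). By DESeq2 with the same threshold, 0 were called in C and K and 2 in CK vs WT. Over all 65483 peaks DESeq2 called 180 in C, 1739 in K and 5274 in CK. At an unadjusted edgeR p under 0.05 C had 3 member peaks, K 4 and CK 10 (5 with a log2 fold change above 0 and 5 below). As shares of the members these were 8.11, 10.8 and 27.0%, near or below the 8.9, 20.6 and 28.9% of all peaks. In CK vs C it was 8 member peaks, or 21.6% against 21.2%. Fewer passed an adjusted p of 0.05: 0 in C (0.362% of all peaks), 0 in K (5.38%), 2 in CK (15.4%), 2 in CK vs C (6.68%) and 3 in the test of any genotype (13.2%). The median absolute log2 fold change in CK vs WT was 0.11 over the members and 0.16 over all peaks. The members were also deeper, with a median of 191 fragments per library against 85.5, so these fold changes differ in precision. Precision depended on depth and on the spread between mice. In CK vs WT the 95% interval reached 0.077 to 0.77 to each side of the estimate for the 28 peaks with a mean of at least 20 fragments per library, and 0.51 to 0.89 for the other 9.

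**Figure D2:**
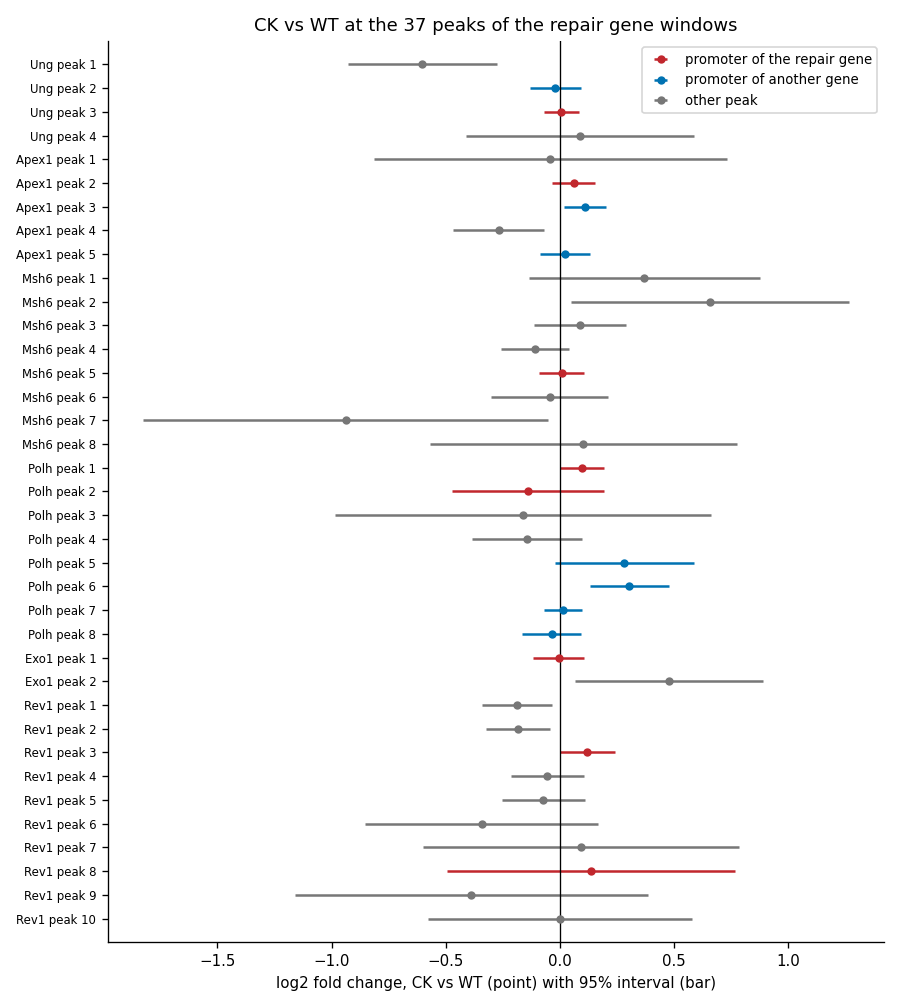
Log2 fold change of CK vs WT (x axis; points) with 95% intervals (bars) for the 37 peaks (y axis), from edgeR over 17 mice, coloured by whether the peak lies within 1 kb of a TSS of the repair gene, of another gene, or neither. The 6 promoter peaks over the gene starts lie between -0.0060 and 0.12 and have narrow intervals. Of the 5 widest bars, 4 belong to peaks with a mean under 20 fragments per library and 1 to Apex1 peak 1 (103 fragments), which ranged from 1.35 to 8.37 CPM among CK mice.

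At the 6 main promoters the log2 fold changes spanned -0.076 to -0.023 (C vs WT), 0.027 to 0.16 (K vs WT) and -0.0060 to 0.12 (CK vs WT). With TMM scaling, the lower and upper ends of all their 95% intervals in CK were 0.921 and 1.18 fold; scaling within GC bins gave lower values for Ung and Msh6, described with those promoters. Among all 16179 promoter peaks, 0.136% were called in C, 1.96% in K and 10.1% in CK, and the median log2 fold change was -0.011, 0.055 and 0.055. The 6 promoters are described in the order of their steps in repair.

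The promoter of Ung (Ung peak 3, chr5:114130120-114131889) is the entry to base excision. It held 99.3, 106, 98.8 and 102 CPM in WT (102 ± 3.49, SD, n = 4) and 97.6, 99.02, 96.6 and 97.01 CPM in C (97.6 ± 1.06, SD, n = 4). For Ung, K mice had 108, 105, 101 and 99.98 CPM (103 ± 3.60, SD, n = 4) and CK mice 104, 100.1, 98.1, 103 and 104 CPM (102 ± 2.75, SD, n = 5). The genotypes overlapped, except that all K mice were above all C mice. Its log2 fold change was 0.027 (SE 0.039, 95% interval -0.054 to 0.11, adjusted p = 0.75) in K and 0.0062 (SE 0.037, 95% interval -0.071 to 0.083, adjusted p = 0.939) in CK. In Msh6, whose product senses the mismatch, the promoter (Msh6 peak 5, chr17:87974240-87975832) held 94.1, 91.96, 81.7 and 88.3 CPM in WT (89.04 ± 5.43, SD, n = 4) and 84.8, 82.3, 89.8 and 85.7 CPM in C (85.7 ± 3.14, SD, n = 4). For Msh6, K mice had 92.3, 90.9, 90.6 and 91.7 CPM (91.4 ± 0.747, SD, n = 4) and CK mice 98.2, 85.8, 83.1, 90.997 and 89.4 CPM (89.5 ± 5.75, SD, n = 5). WT and CK overlapped, and the K mice lay close together above the C mice. Its change was 0.038 (SE 0.050, 95% interval -0.064 to 0.14, adjusted p = 0.723) in K and 0.0078 (SE 0.047, 95% interval -0.089 to 0.11, adjusted p = 0.939) in CK.

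These 2 promoter peaks have the highest GC content of the 6, 64.7% in Ung and 63.1% in Msh6, and fall among the 3275 peaks richest in GC (62.3 to 82.0%), whose median log2 fold change was 0.18 in K and 0.22 in CK. When each library was scaled within 20 bins of GC content, the change of the Ung promoter in CK was -0.19 (SE 0.034, adjusted p = 0.000651) and that of Msh6 -0.19 (SE 0.041, adjusted p = 0.00301), so both were called lower. In K the same scaling gave -0.14 (SE 0.036, adjusted p = 0.0314) for Ung and -0.12 (SE 0.043, adjusted p = 0.107) for Msh6. With TMM neither promoter was called, so the direction and the call depend on this choice. K vs C changed sign too. For Ung it was 0.084 with TMM and -0.070 with GC bins (edgeR adjusted p = 0.358). For Msh6 it was 0.094 and -0.060 (adjusted p = 0.548). CK vs C went from 0.063 to -0.12 (adjusted p = 0.0392) for Ung and from 0.063 to -0.13 (adjusted p = 0.0782) for Msh6. The place of all K mice above all C mice at these promoters was seen in TMM values. Of the other 4 promoters Rev1 moved most in CK, from 0.12 to 0.054, and none of the 4 was called with either scaling.

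**Figure D3:**
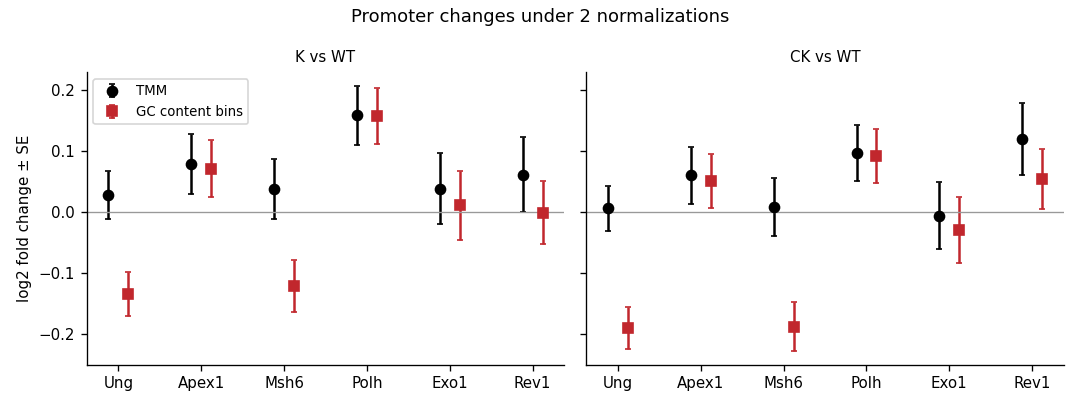
Log2 fold change (y axis) of the 6 main promoter peaks (x axis) in K and CK vs WT with TMM (black circles) and with scaling within GC content bins (red squares); bars are SE from edgeR. Ung and Msh6 move from near 0 to between -0.19 and -0.12, and the other 4 move less.

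The Apex1 promoter (Apex1 peak 2, chr14:50923635-50925712) also covers the start of Osgep, a tRNA modification enzyme transcribed the other way, so the peak cannot be assigned to either gene. It held 55.7, 55.1, 51.7 and 58.1 CPM in WT (55.2 ± 2.62, SD, n = 4) and 55.7, 54.9, 50.2 and 53.8 CPM in C (53.6 ± 2.40, SD, n = 4). For Apex1, K mice had 60.7, 59.8, 56.5 and 56.01 CPM (58.2 ± 2.32, SD, n = 4) and CK mice 56.1, 58.4, 54.9, 57.7 and 60.5 CPM (57.5 ± 2.16, SD, n = 5). CK overlapped WT, and all K mice lay above all C mice. On the log2 scale the change was 0.079 (SE 0.049, 95% interval -0.022 to 0.18, adjusted p = 0.38) in K and 0.060 (SE 0.046, 95% interval -0.035 to 0.16, adjusted p = 0.424) in CK. The Exo1 promoter (Exo1 peak 1, chr1:175880179-175881363) held 31.1, 33.7, 34.1 and 33.3 CPM in WT (33.1 ± 1.34, SD, n = 4) and 32.2, 32.2, 32.4 and 33.5 CPM in C (32.6 ± 0.590, SD, n = 4). For Exo1, K mice had 34.8, 34.1, 31.9 and 35.1 CPM (33.97 ± 1.46, SD, n = 4) and CK mice 30.8, 31.8, 31.1, 35.3 and 35.8 CPM (32.98 ± 2.41, SD, n = 5). All 4 genotypes overlapped. Its log2 fold change was -0.023 (SE 0.058, adjusted p = 0.947) in C, 0.038 (SE 0.058, adjusted p = 0.765) in K and -0.0060 (SE 0.055, 95% interval -0.12 to 0.11, adjusted p = 0.962) in CK.

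The Polh promoter (Polh peak 1, chr17:46201114-46203873) is shared with Xpo5, which exports precursor miRNAs from the nucleus and is transcribed from the same region. It held 52.7, 52.4, 51.9 and 48.1 CPM in WT (51.3 ± 2.14, SD, n = 4) and 48.9, 47.3, 53.03 and 51.9 CPM in C (50.3 ± 2.62, SD, n = 4). For Polh, K mice had 58.7, 56.7, 57.05 and 56.6 CPM (57.3 ± 0.999, SD, n = 4) and CK mice 56.6, 53.3, 53.4, 58.3 and 52.6 CPM (54.8 ± 2.49, SD, n = 5). All K mice lay above all WT and all C mice, while CK overlapped WT. The log2 fold change in K was 0.16 (SE 0.049, 95% interval 0.058 to 0.26, adjusted p = 0.0556) and in CK 0.10 (SE 0.046, 95% interval 0.0012 to 0.19, adjusted p = 0.167), neither past the threshold. K vs C gave 0.19 (SE 0.049, 95% interval 0.088 to 0.29, adjusted p = 0.0303) and the test of any genotype an edgeR adjusted p of 0.0236. A weaker peak at another Polh start (Polh peak 2, chr17:46195622-46196639) had 4.18 ± 1.34 CPM in WT (SD, n = 4) and 3.78 ± 0.542 in CK (SD, n = 5), with overlap.

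For Rev1, the promoter (Rev1 peak 3, chr1:38128600-38131416) held 55.4, 51.6, 47.3 and 52.7 CPM in WT (51.8 ± 3.35, SD, n = 4) and 50.4, 49.9, 48.2 and 47.8 CPM in C (49.1 ± 1.24, SD, n = 4). Among Rev1 values, K mice had 59.2, 56.1, 49.1 and 51.7 CPM (54.01 ± 4.47, SD, n = 4) and CK mice 61.1, 51.1, 52.96, 57.2 and 58.8 CPM (56.2 ± 4.14, SD, n = 5). WT overlapped with CK, whereas all CK mice lay above all C mice. The log2 fold change was 0.12 (SE 0.059, 95% interval -0.00074 to 0.24, adjusted p = 0.176) in CK vs WT and 0.20 (SE 0.059, 95% interval 0.076 to 0.32, adjusted p = 0.0432) in CK vs C. A faint peak near an internal Rev1 start (Rev1 peak 8, chr1:38054555-38055406) averaged under 1 CPM in all 4 genotypes, and its interval in CK vs WT ran from -0.50 to 0.77, so no statement about it is possible at this depth.

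**Figure D4:**
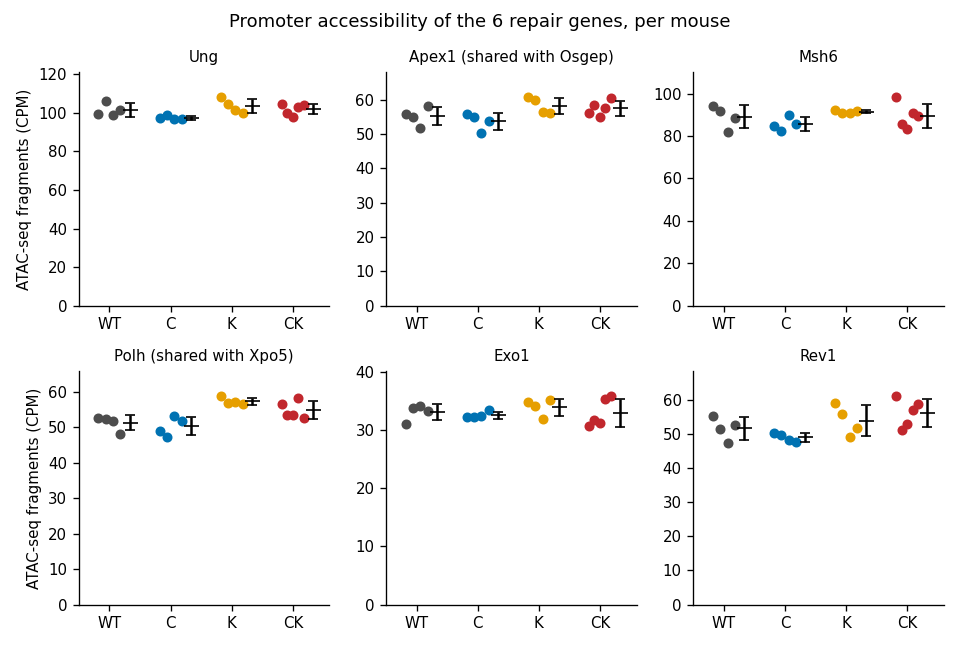
Accessibility (CPM, y axes from 0) of the 6 promoter peaks over the gene starts in every mouse (points) by genotype, with the mean and SD (bars; n = 4 WT, 4 C, 4 K and 5 CK). In Polh the K mice (56.6 to 58.7 CPM) lie above the WT mice (48.1 to 52.7 CPM), and in the other 5 panels K and CK overlap WT.

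Outside the genes' own promoters, 4 peaks reached an adjusted p under 0.05 in some test without passing 0.01 in the main analysis. In CK vs WT these were Ung peak 1 and Polh peak 6. Sequence from the middle of each is shown because they had the lowest adjusted p of the 37 peaks in this contrast. Capitals mark AGGAAG and TTCNNNGAA on either strand.
Ung peak 1, chr5:114115014-114115313: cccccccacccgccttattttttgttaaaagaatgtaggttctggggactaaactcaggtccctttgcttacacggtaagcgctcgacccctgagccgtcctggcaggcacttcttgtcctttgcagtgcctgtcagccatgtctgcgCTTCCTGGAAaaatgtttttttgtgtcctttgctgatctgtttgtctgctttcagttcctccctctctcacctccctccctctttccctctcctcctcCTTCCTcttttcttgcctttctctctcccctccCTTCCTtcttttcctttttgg
Polh peak 6, chr17:46162986-46163285: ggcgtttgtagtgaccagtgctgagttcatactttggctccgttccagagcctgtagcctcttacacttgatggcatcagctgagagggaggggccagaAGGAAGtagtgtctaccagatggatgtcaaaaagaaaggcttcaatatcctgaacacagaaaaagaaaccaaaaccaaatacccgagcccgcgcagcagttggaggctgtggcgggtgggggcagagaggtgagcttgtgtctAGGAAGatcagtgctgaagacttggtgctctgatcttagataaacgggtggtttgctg
Ung peak 1 held 3 copies of AGGAAG and 1 of TTCNNNGAA, of which 1 overlaps a copy of AGGAAG, and Polh peak 6 held 2 of AGGAAG. In 300 bp at the centre of all peaks, AGGAAG occurred in 40.0% and TTCNNNGAA in 8.22%.

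Ung peak 1 (chr5:114114767-114115559) has its centre at -15223 bp from the Ung start (a negative value is upstream), in an intron of Usp30, a mitochondrial deubiquitinase, and is 3639 bp from a Usp30 TSS. It held 5.75, 4.86, 4.55 and 4.43 CPM in WT (4.89 ± 0.596, SD, n = 4) and 2.97, 3.65, 5.16 and 3.77 CPM in C (3.89 ± 0.915, SD, n = 4). At Ung peak 1, K mice had 4.09, 2.78, 4.87 and 5.21 CPM (4.24 ± 1.08, SD, n = 4) and CK mice 3.30, 3.28, 3.36, 3.14 and 3.00 CPM (3.22 ± 0.147, SD, n = 5). The 5 CK mice were all lower than the 4 WT mice, whereas C and K overlapped WT. The log2 fold change in CK vs WT was -0.60 (SE 0.16, 95% interval -0.93 to -0.28, adjusted p = 0.011), which is 0.659 fold. C gave -0.33 (SE 0.16, adjusted p = 0.563) and K -0.20 (SE 0.16, adjusted p = 0.534), and CK departed from adding up C and K by -0.070 (SE 0.23, 95% interval -0.54 to 0.40, adjusted p = 1). DESeq2 called this peak (adjusted p = 0.00642), as did edgeR when only CK and WT were fitted (adjusted p = 0.00325). edgeR also called it without C replicate 1, C replicate 3, K replicate 2 or K replicate 4 (adjusted p = 0.00902, 0.00652, 0.00426 and 0.00925), mice outside this contrast. The peak was not called with total counts, GC bins, the replicate block or Y chromosome signal, nor when any WT or CK mouse was left out. The mean log2 difference of CK from WT was -0.70 among mice with Y fragments and -0.47 among mice without them.

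Polh peak 6 (chr17:46162817-46163454) lies 39510 bp downstream of the Polh start at a TSS of Gtpbp2, a GTPase that rescues stalled ribosomes. It held 12.8, 13.003, 13.3 and 11.4 CPM in WT (12.6 ± 0.827, SD, n = 4) and 14.9, 14.1, 16.7 and 14.4 CPM in C (15.03 ± 1.15, SD, n = 4). At Polh peak 6, K mice had 14.4, 16.1, 14.5 and 12.6 CPM (14.4 ± 1.43, SD, n = 4) and CK mice 15.8, 17.1, 16.1, 14.9 and 14.001 CPM (15.6 ± 1.19, SD, n = 5). All CK mice and all C mice lay above all WT mice, and K overlapped WT. This gave a log2 fold change of 0.30 (SE 0.085, 95% interval 0.13 to 0.48, adjusted p = 0.0161) in CK, 0.25 (SE 0.089, adjusted p = 0.34) in C and 0.19 (SE 0.090, adjusted p = 0.228) in K. DESeq2 called it in CK vs WT (adjusted p = 0.00763), and edgeR did without CK replicate 5 (adjusted p = 0.00921). edgeR with the replicate number as a block also called Polh peak 6 (adjusted p = 0.00305, and 0.00506 with GC bins added). Only 1 of 4 same-numbered WT and CK pairs correlated over 0.1, so this block is an alternative. With the Y chromosome signal as a covariate the estimate in CK was 0.18. The mean log2 difference of CK from WT was 0.25 among mice with Y fragments and 0.35 among mice without them. At the larger Gtpbp2 promoter (Polh peak 7, named after its values were seen) the log2 fold change in CK was 0.013 (SE 0.040, adjusted p = 0.871), and at Polh peak 5, 679 bp from a Gtpbp2 TSS, it was 0.28 (SE 0.15, adjusted p = 0.207).

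Apex1 peak 3 (chr14:50929900-50931853), the strongest peak near Apex1, covers starts of Pip4p1, a phosphoinositide phosphatase, and of Pnp, purine nucleoside phosphorylase. It held 136, 126, 123 and 125 CPM in WT (127 ± 5.64, SD, n = 4) and 123, 120.2, 121 and 119 CPM in C (121 ± 1.97, SD, n = 4). At Apex1 peak 3, K mice had 148, 136, 131 and 133 CPM (137 ± 7.98, SD, n = 4) and CK mice 146, 130.1, 129, 140.01 and 141 CPM (137 ± 7.45, SD, n = 5). All K and all CK mice lay above all C mice, and both overlapped WT. CK vs C gave a log2 fold change of 0.18 (SE 0.045, 95% interval 0.092 to 0.28, adjusted p = 0.0149) and K vs C 0.18 (SE 0.047, 95% interval 0.082 to 0.28, adjusted p = 0.0326), while CK vs WT gave 0.11 (SE 0.045, adjusted p = 0.104), or 0.042 with scaling within GC bins. The test of any genotype had an edgeR adjusted p of 0.0144. CK vs C passed 0.01 with DESeq2 (adjusted p = 0.00479), with total counts (0.00969) and without CK replicate 3 (0.00896). It also passed in edgeR with the replicate block (adjusted p = 0.0028) and with the presence of Y fragments (0.00606). Of the same-numbered C and CK pairs 2 of 4 correlated over 0.1. The mean log2 difference of CK from WT was 0.13 among mice with Y fragments and 0.10 among mice without them.

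Rev1 peak 1 (chr1:38149639-38150997), intergenic and centred at -20517 bp from the Rev1 start, held 41.7, 36.7, 42.2 and 39.4 CPM in WT (39.99 ± 2.55, SD, n = 4) and 37.7, 35.9, 43.4 and 42.8 CPM in C (39.96 ± 3.72, SD, n = 4). At Rev1 peak 1, K mice had 30.2, 31.5, 38.2 and 34.7 CPM (33.6 ± 3.55, SD, n = 4) and CK mice 36.9, 37.3, 37.8, 32.97 and 30.2 CPM (35.05 ± 3.29, SD, n = 5). K and CK had lower means than WT and C, but the groups overlapped. The log2 fold change was -0.25 (SE 0.079, 95% interval -0.41 to -0.086, adjusted p = 0.0643) in K and -0.19 (SE 0.075, 95% interval -0.34 to -0.036, adjusted p = 0.0871) in CK, and the test of any genotype had an edgeR adjusted p of 0.0427. Rev1 peak 5 (chr1:38108914-38111175), in an intron of Rev1, averaged 12.9 ± 0.239 CPM in WT, 14.7 ± 0.740 in C, 12.1 ± 1.05 in K (each SD, n = 4) and 12.3 ± 1.46 in CK (SD, n = 5). All C mice were above all mice of the other genotypes there, with a log2 fold change of 0.19 (SE 0.091, adjusted p = 0.552) in C vs WT and -0.26 (SE 0.086, adjusted p = 0.0664) in CK vs C.

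**Figure D5:**
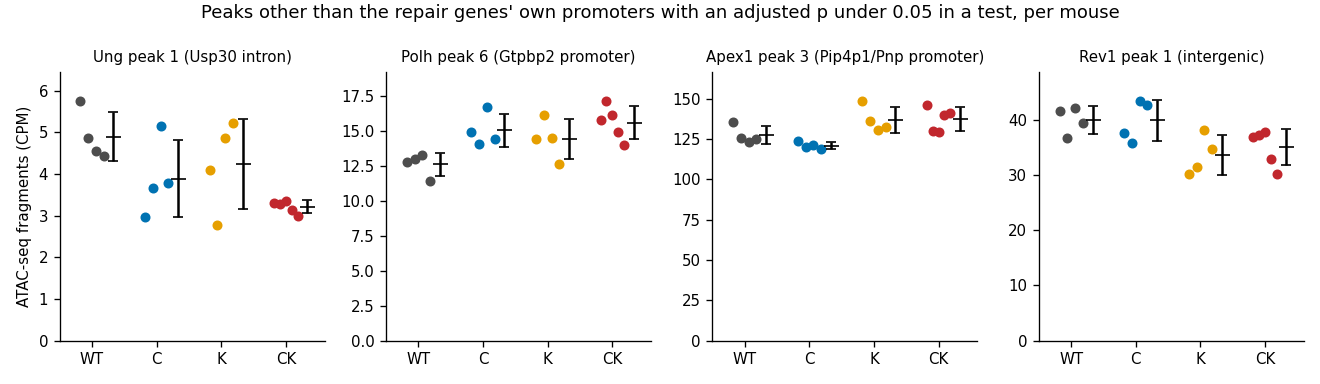
Accessibility (CPM, y axes from 0) in every mouse (points) by genotype, with mean and SD (bars; n = 4 WT, 4 C, 4 K and 5 CK), at the 4 peaks outside the repair genes' own promoters that had an adjusted p under 0.05 in a test. Every CK mouse is below the WT mice at Ung peak 1 (3.00 to 3.36 against 4.43 to 5.75 CPM) and above all WT mice at Polh peak 6.

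All CK mice lay on the same side of all WT mice at 4 of the 37 peaks, which is 10.8% of them, against 13% of all peaks. Besides Ung peak 1 and Polh peak 6 these were Exo1 peak 2, with a log2 fold change of 0.48 (SE 0.20, adjusted p = 0.109), and Rev1 peak 2, named after its values were seen, with -0.18 (SE 0.068, adjusted p = 0.0673). Exo1 peak 2, 43450 bp from the Exo1 start in intergenic sequence, was low, with 0.993 ± 0.0931 CPM in WT (SD, n = 4) and 1.39 ± 0.207 in CK (SD, n = 5). K mice did not overlap WT mice at 2 of the 37 peaks (11.3% of all peaks) and C mice at 2 (5.66% of all peaks). Near Msh6, the faint peaks Msh6 peak 2 (0.565 ± 0.344 CPM in WT, SD, n = 4) and Msh6 peak 7 (0.480 ± 0.0536) had log2 fold changes in CK of 0.66 (SE 0.30, 95% interval 0.047 to 1.26, adjusted p = 0.14) and -0.94 (SE 0.43, 95% interval -1.83 to -0.051, adjusted p = 0.148). Without WT replicate 1 the estimate of Msh6 peak 2 in CK was 1.15, and without CK replicate 4 that of Msh6 peak 7 was -1.47. Apex1 peak 4, in an intron of Pnp, went from 10.8 ± 1.07 CPM in WT (SD, n = 4) to 8.92 ± 0.897 in CK (SD, n = 5), with overlap and a log2 fold change of -0.27 (SE 0.10, adjusted p = 0.0611), and Ung peak 4, in an intron of Acacb, had a log2 fold change of 0.087 (SE 0.24, adjusted p = 0.856).

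Accessibility was also summed over each window, where the strongest peaks weigh most. In WT the windows held 149.8 ± 5.63 CPM for Ung, 249 ± 7.66 for Apex1, 128 ± 5.57 for Msh6, 34.1 ± 1.31 for Exo1, 208 ± 2.76 for Polh and 185 ± 6.77 for Rev1 (each mean ± SD, n = 4). The main promoter gave 97.1% of the WT sum in Exo1, 69.6% in Msh6 and 67.8% in Ung, but 27.9% in Rev1, 24.7% in Polh and 22.1% in Apex1, whose windows include promoters of neighbours or distal peaks. None of the 6 windows was called in C, K or CK vs WT, where 0.332, 2.95 and 11.8% of 17156 gene windows were called, nor in CK vs C (4.21%), CK vs K (0.00583%), K vs C (0.863%) or the test of CK against adding up C and K (0.0291%). In CK the log2 fold changes with 95% intervals were -0.017 (-0.082 to 0.048, adjusted p = 0.733) for Ung, 0.063 (-0.011 to 0.14, adjusted p = 0.209) for Apex1 and -0.0011 (-0.078 to 0.075, adjusted p = 0.987) for Msh6. They were 0.011 (-0.10 to 0.12, adjusted p = 0.904) for Exo1, 0.043 (-0.018 to 0.10, adjusted p = 0.305) for Polh and -0.069 (-0.14 to 0.0010, adjusted p = 0.144) for Rev1, all by edgeR. The lowest and highest ends of these intervals were 0.908 and 1.10 fold, with TMM scaling. Scaling within GC bins was not applied to windows. With it the Ung and Msh6 promoters, most of their windows' sums, changed by -0.19 each in CK. The lowest adjusted p values of a window came in the Apex1 window, 0.12 (0.051 to 0.20, adjusted p = 0.0242) in CK vs C and 0.14 (0.064 to 0.22, adjusted p = 0.0275) in K vs C, which were not past 0.01 either. In the Rev1 window the main promoter and the upstream peaks 1 and 2 had log2 fold changes in CK of 0.12, -0.19 and -0.18. With the gene body alone the Rev1 sum changed by 0.046 in CK and 0.016 in K, compared with -0.069 and -0.072 for the whole window.

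Accessibility by kind of peak was also compared. Of the members, 40.5% (15 of 37) lay within 1 kb of a TSS, compared with 24.7% of all peaks; 8 were at a start of the repair gene itself and 7 at starts of other genes. For CK vs WT the median log2 fold change was 0.034 over the 8 own promoters (6 above 0), 0.023 over the 7 promoters of other genes (5 above 0), -0.073 over the 13 peaks within genes (3 above 0) and -0.043 over the 9 intergenic peaks (4 above 0). Over all 37 it was -0.00038, and 0.0029 over all 65483 peaks and 0.055 over all promoter peaks. Values over all peaks within genes and all intergenic peaks are not given here, so those 2 classes have no like background.

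The promoters of 28 other genes of the same pathways (uracil excision and abasic site repair, mismatch repair, ubiquitination of PCNA and translesion polymerases) were examined in the same fit; the list was drawn up with earlier results of these data known. They had 41 promoter peaks. In C and K vs WT 0 of 41 were called, and in CK 0 were higher and 1 was lower, against 10.1% of all promoter peaks called in CK. At an adjusted p under 0.05, 2 were higher and 6 lower in CK, where 20.4% of all promoter peaks passed. The median log2 fold change in CK was -0.018, and the values ran from -0.65 to 0.63. The lower peak was near 1 of several annotated starts of Xrcc1 (chr7:24563326-24565989), the scaffold of single-strand break repair. It held 103, 92.95, 89.04 and 92.3 CPM in WT (94.3 ± 5.97, SD, n = 4) and 86.04, 84.3, 87.6 and 87.2 CPM in C (86.3 ± 1.48, SD, n = 4). At this Xrcc1 peak, K mice had 93.2, 81.4, 91.2 and 85.8 CPM (87.9 ± 5.34, SD, n = 4) and CK mice 75.03, 77.5, 86.8, 74.3 and 72.9 CPM (77.3 ± 5.54, SD, n = 5). The highest CK mouse was below the lowest WT mouse, and C and K fell between them on average. The peak had a log2 fold change of -0.29 (SE 0.052, 95% interval -0.39 to -0.18, adjusted p = 0.000588) in CK, -0.13 (SE 0.054, adjusted p = 0.474) in C and -0.10 (SE 0.054, adjusted p = 0.303) in K. Of the other Xrcc1 promoter peaks, the one shared with Pinlyp (chr7:24546363-24547631) had -0.038 in CK (adjusted p = 0.668) and one farther along the chromosome -0.33 (adjusted p = 0.0354). In CK vs C 1 of the 41 peaks was called, against 3.07% of all promoter peaks, which is near the same share; it was higher, at Tdg, a thymine glycosylase named after its values were seen, with 67.6 ± 1.60 CPM in C (SD, n = 4) and 79.3 ± 3.00 in CK (SD, n = 5), a log2 fold change of 0.23 (SE 0.048, adjusted p = 0.00555). Its change from WT was 0.13 (SE 0.048, adjusted p = 0.0686) in CK and -0.10 (SE 0.051, adjusted p = 0.567) in C.

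Finally, the promoters whose accessibility followed each repair gene most closely over the 17 libraries were found among 16171 promoter peaks, by Pearson's r of log2 CPM. They were those of Nrtn for Ung (r = 0.953), Ciao1 and Tmem127, which share a peak, for Apex1 (r = 0.906), Cyren for Msh6 (r = 0.920), Cep19 and Pigx, which share a peak, for Exo1 (r = 0.868), Atp8a1 for Polh (r = 0.924) and Cdk13 for Rev1 (r = 0.975). The 99th percentile of r over all promoters was 0.831 for Ung, 0.776 for Apex1, 0.742 for Msh6, 0.659 for Exo1, 0.792 for Polh and 0.889 for Rev1. Whether effects shared across peaks, such as that of base composition, lie behind this likeness was not tested. These values describe likeness over the same 17 libraries and carry no test.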

How the data were processed

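ATAC-seq libraries of sorted splenic GC B cells from 17 mice (4 WT, 4 C, 4 K and 5 CK) were analysed, grouped by their titles. The authors deposited raw counts of fragments per consensus peak, made with featureCounts 2.0.1 on mm10 alignments; peaks were pooled over libraries before counting, so a peak of 1 genotype is counted in all. Libraries of centroblasts and centrocytes in the series were not analysed here. The counts of all 65483 peaks were fitted with edgeR 4.0.16 (R 4.3.3; TMM, quasi-likelihood, 1 coefficient per genotype, no covariate), p-values were adjusted by Benjamini-Hochberg over all peaks, and peaks were called at an adjusted p under 0.01. CPM values use TMM, intervals are 95%, and the same model was fitted to fragments summed over gene windows. Mice are the replicates; libraries held 17483706 to 21857738 fragments in peaks, and intervals of faint peaks are wide. The code was tested on simulated data. Peaks named are those within 1 kb of a member's TSS, any called, and for each member the 2 others with the lowest p of the test of any genotype; listed repair genes are named where called, and exceptions are stated. The members and lists were chosen with earlier results of these data known. Alternatives were DESeq2 1.42.0, total counts, loess offsets (span 0.3), 20 GC content bins, filters, other windows, a replicate block, Y chromosome signal and leaving out each library; the presence of Y fragments and the GC bins with the block were added after seeing the data. GENCODE and RefSeq (GRCm38.p6) gave annotation and sequence. Deviations from genotype means correlated at -0.093 to 0.22 between same-numbered mice (median 0.10, against -0.0087 for different numbers; 0.14 to 0.22 in the 4 WT and C pairs), and 10 of 17 libraries were closest to one of their own number. 1 cell type marker is not reported here.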

Additional observations from a re-analysis of the deposited data

Results flagged for a closer look

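Of 100 groups of 4 or 5 values examined, 6 held a mouse far from the others of its genotype; chance alone flags about 1 in 20 such groups. At Ung peak 4, WT replicate 4 had 0.554 CPM, with the nearest WT mouse at 1.12. At Polh peak 5, C replicate 4 had 2.60 CPM and the nearest C mouse 2.12. The Exo1 promoter in C replicate 4 had 33.5 CPM, with the nearest at 32.4. At Rev1 peak 5, C replicate 2 had 15.8 CPM and the nearest C mouse 14.4. Summed over the Exo1 window, K replicate 3 had 32.6 CPM, with the nearest at 35.5. Summed over the Rev1 window, K replicate 4 had 186 CPM, while the nearest K mouse had 173.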

How the results depend on the processing

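No member peak was called in C or K vs WT under any alternative. In CK vs WT, where 0 were called, DESeq2 called 2, GC bins 2, the fit of only the genotypes compared 1, the replicate block 1 and GC bins with the block 3. An adjusted p under 0.05 gave 2, and leaving out 1 library gave 0 to 1. Of all 65483 peaks these settings called, in the same order, 5274, 3918, 3677, 6607, 5699 and 10082. Leaving out 1 library gave 2114 to 4609 of all peaks. In CK vs C the counts were 1 with DESeq2, 1 with total counts, 1 with the block, 1 with the presence of Y fragments and 2 at 0.05. Leaving out a library gave 0 to 1 in CK vs C. Over all peaks the CK vs C counts were 2104, 1128, 2571, 1916 and 4377, and 250 to 1205 without a library. K vs C had 1 with the block and 2 at 0.05, against 1411 and 2371 of all peaks. The test of any genotype had 2 with DESeq2, 1 with total counts, 1 with GC bins, 2 with the block and 1 with the presence of Y fragments. It had 1 with GC bins and the block, 3 at 0.05 and 1 with 50 kb on each side. Leaving out a library gave 0 to 1, the 1 without WT replicate 1. Over all peaks this test called 5562, 3725, 2997, 6212, 4512, 4647 and, at 0.05, 8666, and 2362 to 3831 without a library. Promoter peaks of the repair list called in CK (1) became 3 within 5 kb of a TSS, 4 with GC bins and 8 at 0.05. At 0.05 20.4% of all promoter peaks passed in CK, and such shares are not given here for the 5 kb and GC bin counts. Reversed were the Ung promoter in CK, -0.19 with GC bins and -0.19 with the block added, and the Msh6 promoter, -0.19 and -0.18. Same-numbered mice correlated over 0.1 in all 4 pairs of WT and C but not in every pair of the other genotypes, so for those the block is an alternative; it called Polh peak 6 in CK vs WT (adjusted p = 0.00305; 0.00506 with GC bins) and Apex1 peak 3 in CK vs C (0.0028), and changed no call in C vs WT. Of the log2 fold changes recomputed for named peaks and windows, 2526 stayed the same, 39 moved by more than the spread between mice, 15 became called and 4 reversed; the cause was not tested. Over all peaks, CK vs WT had 4478 calls, 6607 with the block, 715 with Y chromosome signal as covariate and 5535 with the presence of Y fragments. The signal was summed over all Y peaks and did not follow presence. C replicate 4 had the highest signal, 1009 CPM, with 1 single-copy fragment, whereas WT replicate 1 had 278 CPM with 1474.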
